A study of Homo sapiens with 6 samples.

Results

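The Wilms tumor driver genes are 9 genes that are recurrently mutated in this kidney tumor or mark the embryonic cells it resembles: WT1, CTNNB1, DROSHA, DGCR8, DICER1, XPO5, SIX2, MLLT1 and PAX2. They were taken by symbol from a table of 55765 gene names, and all 9 were found. The table holds FPKM, fragment counts scaled by transcript length and by the size of the library, for 6 total RNA libraries of the line SK-NEP-1. The submitters give its tissue as kidney and its tumor as Wilms tumor. Cells of 3 libraries had received a small interfering RNA against EHMT2 (siEHMT2) and those of the other 3 a control small interfering RNA (siNC). EHMT2 encodes an enzyme that methylates lysine 9 of histone H3. The study asked how EHMT2 affects expression in Wilms tumor cells. The sequences, dose and duration of the small interfering RNAs are not given in the sources used here. All libraries come from 1 cell line. Separate cultures are not stated, so the replicate spread behind each p-value may be technical. The titles name SK-NEP-1 for every library and were followed, although the number after SK-NEP in the field for the line differs between libraries.

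Wilms tumor arises from nephron progenitors, the embryonic cells that build the filtering units of the kidney, when they fail to differentiate. WT1 and PAX2 encode transcription factors of early kidney development, and SIX2 encodes the factor that keeps nephron progenitors in a self-renewing state. CTNNB1 encodes beta-catenin, the effector of canonical WNT signalling, which is mutated to a stable form in part of these tumors. DROSHA, DGCR8, XPO5 and DICER1 act in sequence in microRNA production: DROSHA and DGCR8 cut hairpins out of primary transcripts, XPO5 exports the hairpins from the nucleus, and DICER1 cuts them to mature length. MLLT1 encodes a reader of acylated histones that works with transcription elongation complexes.

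The groups were read against the level of EHMT2 first. EHMT2 was at 7.61, 8.26 and 16.2 FPKM in siEHMT2 and 27.5, 27.2 and 22.7 in siNC. The groups did not overlap, and the highest siEHMT2 value was that of replicate 3. The difference had a limma adjusted p of 0.0609, which ran from 0.000364 to 0.259 over 19 alternatives. The FPKM of a library summed to 244702 to 272271, and the absolute depth is unknown. siEHMT2 replicate 3 also had the largest share of mitochondrially encoded transcripts, 23.6% against 19.03% to 21.5% in the other 5 libraries. In this library, genes with GC-rich transcripts lay above their means over all libraries, with a Spearman rho of 0.57 against −0.34 to 0.11 elsewhere. These values are taken across genes, which are not independent replicates. A total of 12859 genes had a mean of at least 1 FPKM and were tested with limma on log2(FPKM + 1). All differences below are siEHMT2 minus siNC on that scale, which understates the change of low genes.

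None of the 9 driver genes passed the test between siEHMT2 and siNC. Of the 7 that were abundant enough to be tested, 5 had a higher and 2 a lower mean in siEHMT2, and their median difference was 0.07, beside 0.01 over all tested genes. The count of 0 called stands beside 0.552% of all tested genes called at a limma adjusted p under 0.05. At an unadjusted p under 0.05, limma picked 1 of the 7, CTNNB1, where 18.8% of all tested genes did so. The 9 genes spanned a wide range of levels. CTNNB1, MLLT1, XPO5, DGCR8, DROSHA and DICER1 were well expressed, at means of 7.77 to 23.9 FPKM over the 6 libraries. WT1 stood near the lower limit of the test at 1.19 FPKM, and SIX2 and PAX2 were barely detected, at 0.164 and 0.0786 FPKM.

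**Figure D1:**
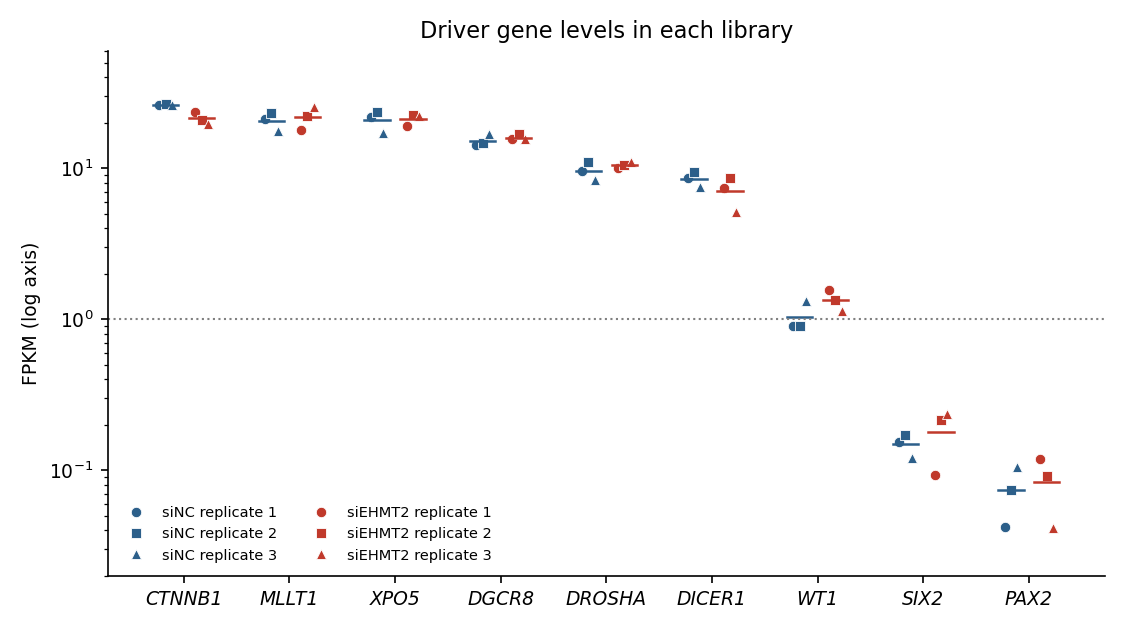
FPKM of the 9 driver genes on a log axis, with 1 point per library and a line at each group mean (n = 3 per group); the dotted line marks 1 FPKM. The 6 genes on the left lie between 5.14 and 26.5 FPKM in every library, WT1 lies near 1 FPKM, and SIX2 and PAX2 reach at most 0.234 FPKM.

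FPKM is scaled to transcript length, so levels could be ordered between genes. CTNNB1 (23.9 FPKM), MLLT1 (21.2) and XPO5 (21.02) had the highest means, but their ranges overlapped. MLLT1 exceeded XPO5 in 2 of 6 libraries and CTNNB1 exceeded MLLT1 in 4 of 6, so the order of these 3 is not set by the data. DGCR8 (15.6 FPKM) and DROSHA (10.1) followed in all 6 libraries without overlap with their upper neighbours. DICER1 (7.77 FPKM) was below DROSHA in 6 of 6 libraries, although their ranges over the libraries overlapped. DICER1 in turn exceeded WT1 by 4.55 to 10.6 times within a library. WT1 exceeded SIX2 by 4.82 to 16.9 times, and SIX2 exceeded PAX2 in 5 of 6 libraries with overlapping ranges. Among the tested genes of a library, CTNNB1 ranked between the 81.7th and 88.3rd percentile and WT1 between the 1.6th and 10.9th.

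CTNNB1 was the only driver gene whose groups did not overlap. CTNNB1 was at 23.6, 21.02 and 19.7 FPKM in siEHMT2 and 26.1, 26.5 and 26.4 in siNC. All 3 siEHMT2 libraries lay below all siNC libraries. Groups that do not overlap with siEHMT2 lower were found for 11.7% of all tested genes. The means were 21.4 ± 1.98 FPKM (SD, n = 3) and 26.3 ± 0.199, or 81.4% of the control. The difference was −0.29 ± 0.10 (SE), with a 95% interval from −0.51 to −0.07, and its limma adjusted p, 0.166, was above 0.05. CTNNB1 passed under 1 of 19 alternatives, limma array weights (difference −0.29, adjusted p = 0.0104), a fit that called 3797 genes in all. The adjusted p over the 19 alternatives ran from 0.0104 to 0.429, and the difference was negative in each of them. The lowest CTNNB1 was in siEHMT2 replicate 3, the siEHMT2 library with the most EHMT2. In these bulk libraries, fewer cells that express a gene and less of its RNA per cell cannot be told apart.

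**Figure D2:**
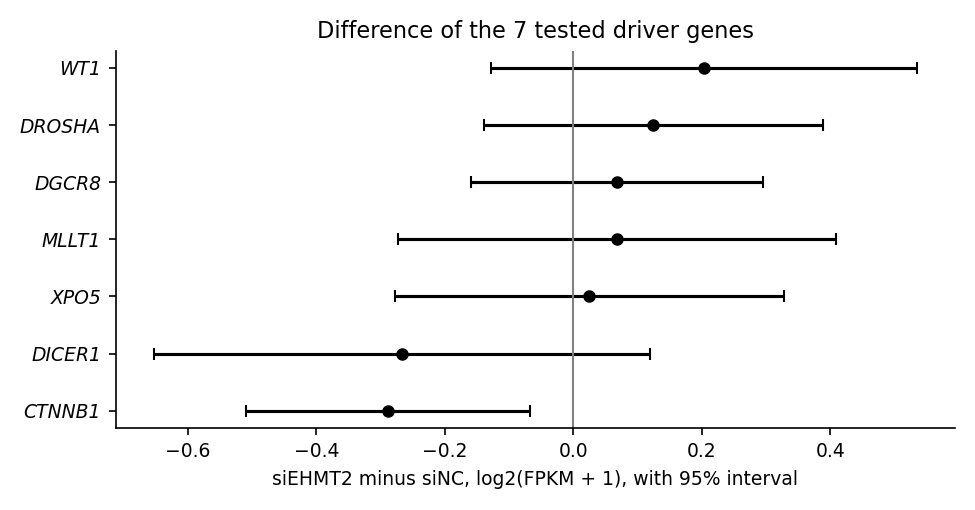
Difference between siEHMT2 and siNC (3 libraries each) for the 7 tested driver genes, as log2(FPKM + 1), with the 95% interval from limma. The interval of CTNNB1 runs from −0.51 to −0.07 and leaves out 0 before adjustment for the 12859 tests, and the other 6 intervals include 0.

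Of 15 tested genes of the list of its partners and targets, 6 were higher and 9 lower in siEHMT2, with a median difference of −0.10 beside 0.01 over all tested genes. In 7 the groups did not overlap with siEHMT2 lower, and in 4 with siEHMT2 higher, where 11.7% and 14.6% of all tested genes did so. Only CCND1, which encodes cyclin D1 and can be a target of beta-catenin, passed. It fell from 374 ± 12.4 to 222 ± 10.1 FPKM (−0.75 ± 0.10, limma adjusted p = 0.0287), and it did not pass under 9 of 19 alternatives (adjusted p from 0.000568 to 0.252). The adjusted p was 0.0334 without siEHMT2 replicate 3, 0.1002 without siEHMT2 replicate 1, 0.202 without siEHMT2 replicate 2, and 0.149, 0.129 and 0.0642 without siNC replicates 1, 2 and 3. PYGO2, which encodes a nuclear cofactor of beta-catenin, was at 28.0 ± 1.70 against 22.1 ± 1.89 FPKM (limma adjusted p = 0.139). AXIN1, which encodes a scaffold of the complex that marks beta-catenin for destruction, was at 8.17, 9.40 and 8.21 FPKM in siEHMT2 and 6.004, 6.08 and 6.09 in siNC (limma adjusted p = 0.0809). The kinase gene GSK3A was at 21.3 ± 0.331 against 19.1 ± 0.536 FPKM (limma adjusted p = 0.4002). The casein kinase gene CSNK1A1 was at 11.95 against 14.0 FPKM, and BTRC, which encodes the subunit that recognises phosphorylated beta-catenin, at 3.56 against 4.89 (limma adjusted p = 0.243 and 0.155). AXIN2, a widely used readout of canonical WNT signalling, was at 2.49 ± 0.0339 against 2.76 ± 0.0705 FPKM (limma adjusted p = 0.627). The DNA-binding partner genes LEF1 (3.75 against 4.65 FPKM) and TCF7L2 (3.06 against 4.15) were lower in mean and TCF7L1 (5.94 against 4.99) higher, none past the threshold.

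The microRNA processing genes start with the pair that cuts primary transcripts. DROSHA, the nuclease, was at 10.05, 10.5 and 11.1 FPKM in siEHMT2 and 9.66, 10.9 and 8.31 in siNC. The groups overlapped, and the lowest value was that of siNC replicate 3. The difference was 0.12 ± 0.12 (95% interval −0.14 to 0.39, limma adjusted p = 0.596). DGCR8, which binds the hairpin and positions DROSHA on it, was at 15.6, 16.8 and 15.5 FPKM in siEHMT2 and 14.2, 14.6 and 16.8 in siNC. It varied least of the 9, by 1.18 times from the lowest to the highest library, and differed by 0.07 ± 0.10 (−0.16 to 0.30, limma adjusted p = 0.752).

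DROSHA and DGCR8 are known to control each other: DROSHA cuts hairpins within the DGCR8 transcript. The hairpins give rise to microRNAs whose mature sequences are shown because they lie inside a driver gene's own exons. By the GENCODE 29 annotation, miR-3618 lies in an untranslated part of a DGCR8 exon and both arms of miR-1306 in coding sequence. Sequences are from RefSeq (GRCh38.p14), 5′ to 3′, with the seed (bases 2 to 8) in capitals.

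hsa-miR-3618: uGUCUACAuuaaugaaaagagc
hsa-miR-1306-5p: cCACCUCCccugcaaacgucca
hsa-miR-1306-3p: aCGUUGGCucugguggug

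The 3 seeds differ. Mature microRNAs were not measured in these libraries. The ratio of DROSHA to DGCR8 within a library, which does not depend on how libraries are scaled, was 0.643, 0.628 and 0.713 in siEHMT2 and 0.678, 0.748 and 0.495 in siNC. The siNC values surround those of siEHMT2 (two-sided exact permutation p = 0.9, adjusted over 3 ratios 0.9, where the smallest p of 3 against 3 is 0.1).

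XPO5, the nuclear export receptor of the cut hairpins, was at 19.02, 22.4 and 22.1 FPKM in siEHMT2 and 21.8, 23.7 and 17.2 in siNC. The group means of 21.1 ± 1.85 and 20.9 ± 3.38 FPKM had a ratio of 1.01, the closest to 1 of the 9 genes. The difference of 0.02 ± 0.13 had a 95% interval from −0.28 to 0.33 (limma adjusted p = 0.942), and its sign changed under 8 of 19 alternatives. The ratio of XPO5 to DROSHA was 2.00 ± 0.116 against 2.16 ± 0.0972 (two-sided exact permutation p = 0.2, adjusted 0.3).

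DICER1, which cuts hairpins to mature microRNAs, was at 7.35, 8.55 and 5.14 FPKM in siEHMT2 and 8.61, 9.50 and 7.45 in siNC. The groups overlapped, and siEHMT2 replicate 3 was the lowest of the 6 libraries. The means of 7.02 ± 1.73 and 8.52 ± 1.03 FPKM gave a difference of −0.27 ± 0.17 (95% interval −0.65 to 0.12, limma adjusted p = 0.432). Over the 19 alternatives the difference was negative in each. It ran from −0.41 without siEHMT2 replicate 2 to −0.09 without siEHMT2 replicate 3. DICER1 has the lowest transcript GC content of the 9 genes, 42.03%, and a correction for GC content gave −0.17 (limma adjusted p = 0.577). The ratio of DICER1 to DROSHA was 0.732, 0.813 and 0.465 in siEHMT2 and 0.892, 0.869 and 0.897 in siNC. The siEHMT2 ratios were all lower (two-sided exact permutation p = 0.1, the smallest possible, adjusted 0.3). The log2 difference of this ratio was −0.44. It was −0.20 without siEHMT2 replicate 3 and −0.60 without siEHMT2 replicate 2.

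DICER1 transcripts are themselves known targets of let-7 and of miR-103 and miR-107 in human cells, and loss of let-7 is a known outcome of mutations in these genes in Wilms tumor. Their mature sequences are shown, from RefSeq (GRCh38.p14), with the seed (bases 2 to 8) in capitals. The first stands for the let-7 family, and the other 2 share 1 seed.

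hsa-let-7a-5p: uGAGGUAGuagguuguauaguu
hsa-miR-103a-3p: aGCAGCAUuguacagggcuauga
hsa-miR-107: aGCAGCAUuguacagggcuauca

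Of 17 tested genes of the list of let-7 targets, 3 were higher and 14 lower in siEHMT2, with a median of −0.22 beside 0.01 over all tested genes, and none passed. In 5 the groups did not overlap with siEHMT2 lower, and in 2 with siEHMT2 higher, where 11.7% and 14.6% of all tested genes did so. PLAGL2, a zinc finger factor gene, was at 10.3, 11.4 and 12.3 FPKM in siEHMT2 and 17.9, 17.6 and 16.7 in siNC, and its limma adjusted p was 0.0503. PLAGL2 passed without siEHMT2 replicate 3, with GC correction and with quantile normalization. It did not pass with a changed filter or pseudocount, rescaling to the same FPKM sum, no trend or the replicate block. Leaving out any other single library also left it above the threshold. Its outcome with array weights and without both libraries numbered 3 is not given here. CCND2, which encodes cyclin D2, was at 7.75 ± 0.693 against 10.7 ± 0.125 FPKM (limma adjusted p = 0.0863). The highest means of the list were those of HMGA1, a chromatin protein gene, at 171 ± 38.9 against 226 ± 12.1 FPKM, the ubiquitin-conjugating enzyme gene CDC34, at 44.8 ± 2.51 against 33.8 ± 2.60, and IGF2BP1, an RNA-binding protein gene, at 37.7 ± 4.16 against 39.6 ± 5.47 (limma adjusted p = 0.205, 0.0967 and 0.821). LIN28B, which encodes the repressor of let-7 maturation, was at 13.9 ± 3.03 against 13.4 ± 1.62 FPKM, whereas its relative LIN28A was listed at 0 in 4 libraries and at most at 0.0547 FPKM.

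Of 29 tested partners in the microRNA pathway, 13 were higher and 16 lower (median −0.07, beside 0.01 over all tested genes) and none passed. An unadjusted limma p under 0.05 was found for 3 of them, where 18.8% of all tested genes had one. The highest were HNRNPA1 (270 ± 6.77 against 248 ± 31.7 FPKM), RAN (130 ± 17.2 against 138 ± 26.0) and DDX5 (109.8 ± 4.74 against 106 ± 9.74). TARBP2, which encodes a partner of DICER1, was at 18.2, 18.0 and 21.0 FPKM in siEHMT2 and 14.9, 14.4 and 16.7 in siNC (limma adjusted p = 0.186). TNRC6C, a silencing factor that binds Argonaute proteins, was at 2.25 ± 0.446 against 3.48 ± 0.408 FPKM (limma adjusted p = 0.133). Of the transcripts that host microRNA hairpins, 19 of 23 listed were found and 6 were tested, of which 2 were higher and 4 lower and none passed. MIR17HG, the host of the miR-17 cluster, was at 2.99 ± 0.544 against 3.81 ± 0.797 FPKM (limma adjusted p = 0.4002). DLEU2, the host of miR-15a and miR-16, was at 8.61 ± 2.15 against 7.61 ± 0.788 FPKM (limma adjusted p = 0.713). MIR600HG was at 7.37 ± 0.970 against 7.12 ± 0.440 FPKM (limma adjusted p = 0.889).

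WT1 had the highest level of the 3 kidney transcription factor genes among the drivers. It was at 1.56, 1.34 and 1.13 FPKM in siEHMT2 and 0.897, 0.895 and 1.33 in siNC. The groups overlapped, since siNC replicate 3 lay within the siEHMT2 range. The means of 1.34 ± 0.216 and 1.04 ± 0.249 FPKM gave the largest positive difference of the 9, 0.20 ± 0.15 (95% interval −0.13 to 0.53, limma adjusted p = 0.485). It ran from 0.14 to 0.37 over the 19 alternatives, positive in each and past the threshold in none. It was 0.35 with a pseudocount of 0.1. WT1 shares exon sequence with WT1-AS, a noncoding gene on the opposite strand, which was at 0.0707 to 0.0929 FPKM. No strand setting is stated, so reads of the overlap cannot be assigned.

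SIX2 was at 0.0923, 0.214 and 0.234 FPKM in siEHMT2 and 0.153, 0.171 and 0.1201 in siNC. PAX2 was at 0.119, 0.0913 and 0.0414 FPKM in siEHMT2 and 0.0419, 0.0743 and 0.104 in siNC. For both genes the groups overlapped and neither reached the mean of 1 FPKM needed for the test. Without the filter on low values the differences were 0.04 for SIX2 and 0.01 for PAX2 (limma adjusted p = 0.800 and 0.900), in a fit that called no gene at all and in which 3641 genes had an unadjusted p under 0.05.

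The sequences before the start sites of these genes are shown beside that of CTNNB1, because the 4 genes span the range from a high level to near 0. They are the 250 bases before the start farthest upstream in RefSeq (GRCh38.p14), 5′ to 3′ on the strand of the gene, with each CG pair in capitals. The deposited values were made on another build (hg19), and these coordinates serve only to place the sequences. The bases after the PAX2 start were not found in a GENCODE 29 transcript, nor were those after the MLLT1 start, whose promoter is searched below.

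CTNNB1 promoter, chr3:41199255-41199504, + strand: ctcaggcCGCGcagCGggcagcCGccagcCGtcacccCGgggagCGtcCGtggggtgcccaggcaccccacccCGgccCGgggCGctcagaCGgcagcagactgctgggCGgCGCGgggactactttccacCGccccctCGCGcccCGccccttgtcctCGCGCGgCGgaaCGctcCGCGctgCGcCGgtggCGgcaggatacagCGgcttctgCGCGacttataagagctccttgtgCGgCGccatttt
WT1 promoter, chr11:32435540-32435789, - strand: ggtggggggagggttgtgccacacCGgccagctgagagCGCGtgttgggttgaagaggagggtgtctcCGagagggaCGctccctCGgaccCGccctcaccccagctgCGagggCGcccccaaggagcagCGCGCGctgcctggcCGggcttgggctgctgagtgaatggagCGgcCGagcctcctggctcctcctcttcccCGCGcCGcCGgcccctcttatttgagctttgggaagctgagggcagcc
SIX2 promoter, chr2:45009453-45009702, - strand: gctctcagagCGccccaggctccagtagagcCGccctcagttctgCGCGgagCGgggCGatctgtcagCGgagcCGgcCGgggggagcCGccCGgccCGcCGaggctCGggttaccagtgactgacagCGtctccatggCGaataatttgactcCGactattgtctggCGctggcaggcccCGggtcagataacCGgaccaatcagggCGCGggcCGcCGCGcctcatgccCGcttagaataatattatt
PAX2 promoter, chr10:100735146-100735395, + strand: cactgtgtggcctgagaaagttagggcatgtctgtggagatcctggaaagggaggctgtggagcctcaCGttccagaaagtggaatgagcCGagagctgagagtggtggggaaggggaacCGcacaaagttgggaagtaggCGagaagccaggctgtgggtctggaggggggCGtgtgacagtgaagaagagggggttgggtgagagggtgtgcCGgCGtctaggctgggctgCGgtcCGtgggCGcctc

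Over the full window of 300 bases, which adds the first 50 transcribed bases, the CTNNB1 promoter held 39 CG pairs, that of SIX2 29, that of WT1 21 and that of PAX2 14. The median was 27 for 8377 protein-coding genes that passed the filter and 8 for 5716 that did not. The CG content of the SIX2 promoter was therefore near that of tested genes although its transcript was at 0.0923 to 0.234 FPKM. GGAAGGAA, a pair of the GGAA units that ETS factors such as FLI1 bind, was found on neither strand in any of the 9 promoters and in 3.59% of all 27195 promoters. CTTTGA, a core of the site of TCF and LEF factors, was also in none of the 9 and in 13.2% of all, and no match says only that these letters are not in this window. CCAAT was found in the promoters of DGCR8, DROSHA, MLLT1 and SIX2, on either strand, and in 35.7% of all.

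MLLT1, the histone reader, was at 17.9, 22.1 and 25.4 FPKM in siEHMT2 and 21.2, 23.3 and 17.6 in siNC. The groups overlapped, and the highest value was that of siEHMT2 replicate 3. The difference was 0.07 ± 0.15 (95% interval −0.27 to 0.41, limma adjusted p = 0.842), and it took the other sign under 5 of 19 alternatives. MLLT1 has the highest transcript GC content of the 9 genes, 64.4%, and after the correction for GC content the difference was −0.025. Of 17 tested partners in elongation complexes, 9 were higher and 8 lower (median 0.01) and none passed. The highest were CTR9 (22.2 ± 1.89 against 24.7 ± 3.05 FPKM), MLLT6 (22.2 ± 5.38 against 19.4 ± 1.75) and RTF1 (20.1 ± 1.04 against 18.1 ± 1.60). DOT1L, which methylates histone H3 within MLLT1-containing complexes, was at 15.9 ± 0.922 against 12.6 ± 1.79 FPKM (limma adjusted p = 0.207). LEO1 of the PAF1 complex was at 12.9 ± 0.668 against 15.1 ± 0.981 FPKM (limma adjusted p = 0.289).

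The driver genes did not vary as 1 block from library to library. siNC replicate 3 had the lowest DROSHA, DICER1, XPO5 and MLLT1 of its group and the highest WT1 and DGCR8. In the siEHMT2 group, replicate 1 had the lowest DROSHA, XPO5 and MLLT1 and the highest WT1 and CTNNB1. Replicate 3 of that group had the lowest WT1, CTNNB1, DGCR8 and DICER1 and the highest DROSHA and MLLT1. For each tested gene except CTNNB1, the groups overlapped.

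**Figure D3:**
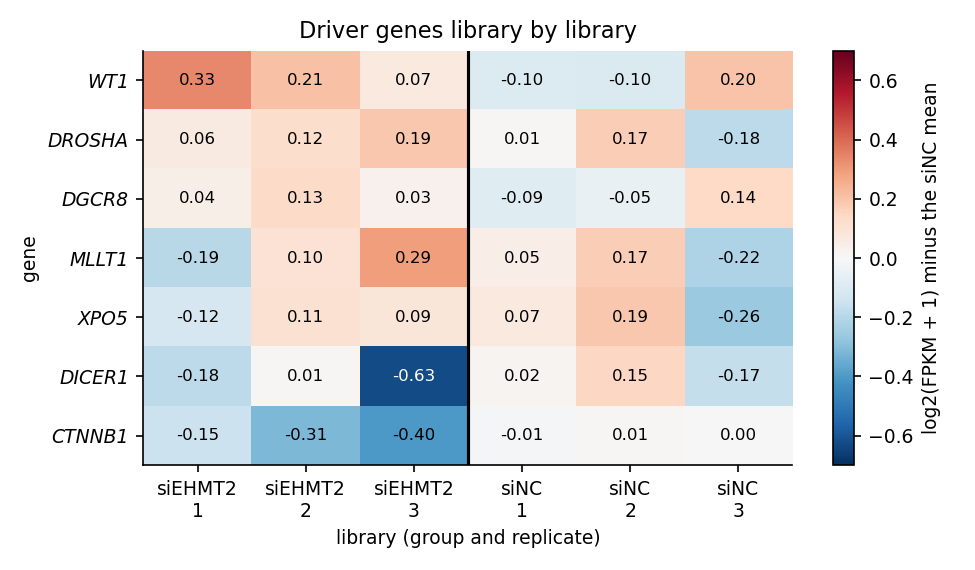
Each cell gives log2(FPKM + 1) of a tested driver gene in 1 library minus the mean of the 3 siNC libraries. CTNNB1 is negative in all 3 siEHMT2 libraries, DICER1 is lowest in siEHMT2 replicate 3, and MLLT1 and XPO5 are negative in siEHMT2 replicate 1 and siNC replicate 3.

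The genes whose pattern over the 6 libraries was most like that of a driver gene were found among 10116 other tested genes with a RefSeq protein, by the root mean square difference of centred log2(FPKM + 1). For CTNNB1 they were EIF5B (0.02) and CENPQ (0.02), and for WT1 PTS (0.02) and NUDCD2 (0.03). DICER1 was closest to HIPK3 (0.03) and RIF1 (0.04), DROSHA to EXOC4 (0.01) and CNTRL (0.02), and DGCR8 to FBXO10 (0.02) and SLC19A1 (0.03). XPO5 was closest to TBC1D5 (0.03) and TTC17 (0.03), and MLLT1 to WASF2 (0.02) and TTLL4 (0.03). With so few libraries and so many candidates, close matches are found for any gene, and they are given as a description.

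The other genes known to be mutated in Wilms tumor were nearly all expressed. Of 29 listed, 28 were tested, and the exception was the collagen gene COL6A3 at a mean under 0.1 FPKM. In siEHMT2 8 were higher and 20 lower, with a median of −0.07, and none passed. The highest were ACTB (723 ± 114 against 792 ± 78.6 FPKM), NONO (205 ± 2.73 against 214 ± 1.27) and TRIM28 (171 ± 13.9 against 193 ± 17.4). HACE1, a ubiquitin ligase gene, was at 2.83 ± 0.360 against 4.02 ± 0.171 FPKM (limma adjusted p = 0.133). MAX, which encodes the partner of MYC proteins, was at 9.35 ± 0.537 against 7.43 ± 0.0904 FPKM (limma adjusted p = 0.154). In HACE1 and in MAX the groups did not overlap.

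The labelled origin of the line was checked with marker genes. Of 26 genes of nephron progenitors and early nephrons, 19 were below the filter and 5 of them were at 0 in all libraries. Of the 7 tested, 4 were higher and 3 lower in siEHMT2 (median 0.19). The list summed to 60.2 to 78.9 FPKM in siEHMT2 and 58.1 to 72.6 in siNC. The progenitor genes SALL1 (1.93 to 3.63 FPKM), EYA1 (0.988 to 2.02) and CITED1 (0.673 to 2.12) were low, as was PAX8, a relative of PAX2, at 0.425 to 0.847 FPKM. HOXD11 and HOXC11, which pattern the posterior body as well as the kidney, were the highest of the list, at 34.6 ± 8.73 against 25.4 ± 8.34 FPKM for HOXD11 (limma adjusted p = 0.386), followed by CRABP2 at 8.56 ± 1.42 against 7.39 ± 1.38 (limma adjusted p = 0.546). HOXC11 was the only member that passed, with a fall from 21.2 ± 1.10 to 13.7 ± 0.268 FPKM (−0.59 ± 0.09, limma adjusted p = 0.0422), which was lost under 10 of 19 alternatives (adjusted p from 0.000584 to 0.255). The adjusted p was 0.0335 without siEHMT2 replicate 3, 0.116 without siEHMT2 replicate 1, 0.228 without siEHMT2 replicate 2, and 0.191, 0.168 and 0.0642 without siNC replicates 1, 2 and 3. Of 21 genes of differentiated kidney epithelium and podocytes, 16 were below the filter and 6 of them were at 0 in all libraries. Of the 5 tested, 1 was higher and 4 lower in siEHMT2 (median −0.26), and none passed. The list summed to 94.1 to 125 FPKM in siEHMT2 and 94.7 to 143 in siNC. Among them were PODXL (16.6 ± 5.12 against 22.0 ± 4.22 FPKM) and KRT18 (6.19 ± 1.99 against 4.21 ± 0.470), which are also expressed outside the kidney. RET, a receptor gene of the ureteric bud, was at 1.49 ± 0.195 against 2.34 ± 0.221 FPKM (limma adjusted p = 0.132). Of 13 genes of muscle and stromal cells only TWIST1 (1.83 against 1.84 FPKM) and COL1A1 (0.935 against 1.28) passed the filter, both lower in mean and neither past the threshold, and PDGFRB was at 0.269 against 0.149. The 13 summed to 2.85 to 3.89 FPKM in siEHMT2 and 3.21 to 3.89 in siNC.

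As background, SK-NEP-1 has been reported to carry the EWSR1-FLI1 fusion of Ewing sarcoma, a tumor of bone and soft tissue. Of 21 genes of EWSR1-FLI1 and Ewing sarcoma, 19 were tested, and the list summed to 434 to 467 FPKM in siEHMT2 and 488 to 537 in siNC. NKX2-2, a homeobox gene activated by the fusion, was at 103 to 134 FPKM. The surface markers CD99 (43.4 to 70.9 FPKM) and STEAP1 (21.8 to 30.7) and the nuclear receptor gene NR0B1 (7.09 to 11.7) were also present. FLI1 was at 4.203 to 6.41 FPKM and EWSR1 at 24.1 to 27.03, and gene totals do not show whether their reads come from a fusion. NKX2-2 thus exceeded WT1, PAX2 and SIX2 in each library, and 16 of the 19 tested genes of this list were lower in siEHMT2 (median −0.29, beside 0.01 over all tested genes), none past the threshold. BCL11B and PAX7, both transcription factor genes, had the smallest p of the list, at 15.9 ± 2.93 against 24.3 ± 0.461 and 70.6 ± 8.56 against 95.7 ± 2.15 FPKM (limma adjusted p = 0.0727 and 0.0977). Of the 26 nephron progenitor and early nephron genes, 12 had a mean under 0.1 FPKM and 7 reached 1 FPKM. Mutations of the driver genes were not read here.

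**Figure D4:**
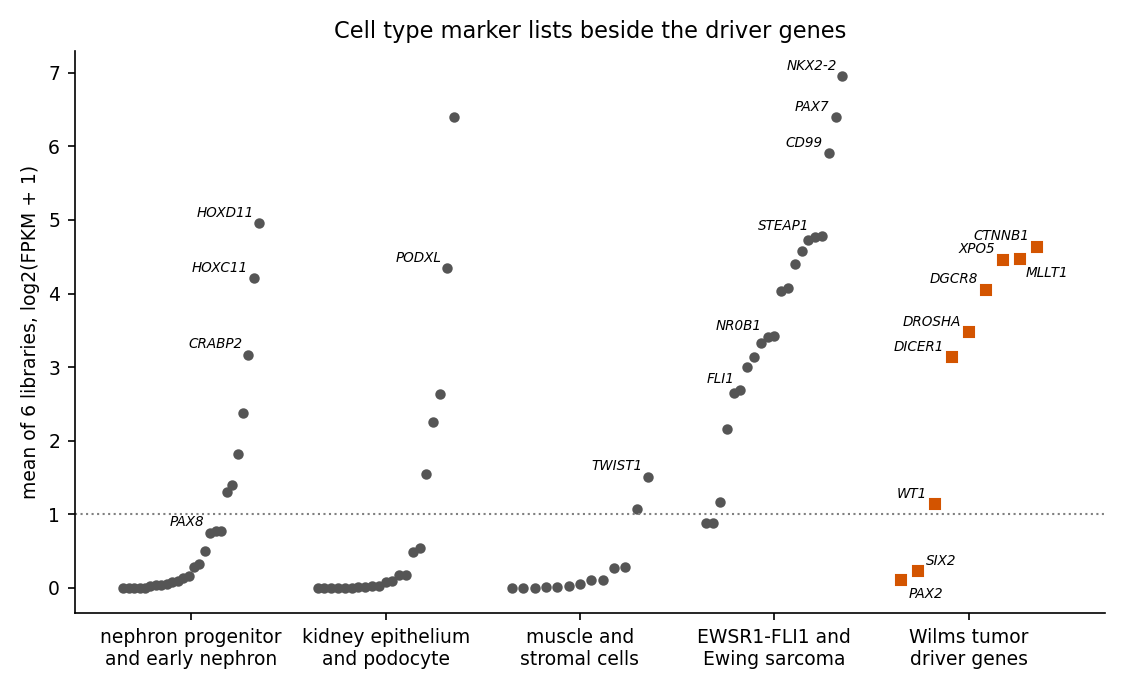
Mean of the 6 libraries, as log2(FPKM + 1), for each gene of 4 marker lists (grey points, sorted within a list) and for the 9 driver genes (orange squares); the dotted line at 1 marks 1 FPKM. Most nephron, kidney epithelium and stromal genes lie below the line together with SIX2 and PAX2, while 19 of 21 Ewing sarcoma genes lie above it.

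Some driver genes share exons with other genes, and the division of reads between them is not stated. On the opposite strand, XPO5 overlaps POLR1C (14.4 to 18.0 FPKM), DGCR8 overlaps TRMT2A (5.45 to 8.15) and DICER1 overlaps DICER1-AS1 (0.394 to 0.915), so the values of these 3 genes are uncertain to that extent.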

How the data were processed

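Total RNA libraries of SK-NEP-1 (NEBNext Ultra RNA kit, per the labels' protocols) were grouped by their titles into 3 siEHMT2 and 3 siNC libraries. The authors deposited FPKM per gene and library. Tools listed in the submitters' processing notes, without roles, are StringTie 2.2.0, HISAT2 2.2.1, fastp and SAMtools 1.4.1, on hg19; the annotation, and how transcripts were combined per gene, are not given in the sources used here. No counts or depths were available, so precision rests on the 3 libraries per group. Genes whose mean over the 6 libraries reached 1 FPKM were fitted together on log2(FPKM + 1) with limma 3.58.1 (R 4.3.3, mean-variance trend, two-sided, no covariates). They were called at an adjusted p (Benjamini and Hochberg) under 0.05. The fit was tested on simulated data with independent noise for each gene. Such data hold no deviation shared across a library, like that with GC content in siEHMT2 replicate 3. Ratios between genes used exact permutation tests (SciPy 1.17.1).

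The 9 driver genes and the 10 other gene lists were chosen with earlier results of these data known. Of 233 list entries 4 were not found. Named from each other list were the 3 members with the highest mean, those past the threshold or else the 2 with the smallest p, and fixed markers; AXIN1, AXIN2, CSNK1A1, BTRC, LEF1, TCF7L1, TCF7L2, LIN28A, LIN28B, MAX and COL6A3 were chosen after their values were seen. GC content (GENCODE 29) was available for 87.3% of tested genes and for all 9 driver genes. Promoter and microRNA sequences came from RefSeq. Alternatives left out libraries or the trend, added GC correction, array weights or a replicate block, or changed the scaling, the filter or the pseudocount. Some genes that this rule names are not reported here.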

Additional observations from a re-analysis of the deposited data

How the results depend on the processing

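The number of driver genes called was 0 in 18 of 19 alternatives and 1, CTNNB1, with array weights; it was 0 in each fit without 1 library. Differences of WT1, CTNNB1, DROSHA, DGCR8 and DICER1 kept their sign in all 19. The sign of XPO5 turned with libraries rescaled to the same FPKM sum (−0.021), the same without mitochondrial genes (−0.013), quantile normalization (−0.011), array weights (−0.0012) and without both libraries numbered 3 (−0.14), and ranged from −0.10 to 0.12 without 1 library. That of MLLT1 turned with GC correction (−0.025), with the replicate block and GC correction together (−0.025) and without both libraries numbered 3 (−0.15), and ranged from −0.045 to 0.20 without 1 library. Without 1 library, the log2 ratio difference of DROSHA to DGCR8 ran from −0.11 (without siNC replicate 3) to 0.19, that of DICER1 to DROSHA from −0.60 to −0.20 and that of XPO5 to DROSHA from −0.15 to −0.07. Over all tested genes, 71 calls became 0 without the filter, 2 with a mean of at least 0.1 FPKM, 31 with the same FPKM sum (10 higher and 21 lower, against 44 and 27), 30 without a trend, 3797 with array weights, 1890 without both libraries numbered 3, and 0 to 172 without 1 library (172 without siEHMT2 replicate 3 and at most 5 without any other). Of the calls, 24 were higher and 30 lower with the same sum without mitochondrial genes, and 50 and 56 with GC correction. The replicate block called 0 genes, alone and with GC correction, where 1845 and 1513 had an unadjusted p under 0.05. The block shares only a number: the correlations of same-numbered libraries were −0.35, 0.09 and −0.39. Genes called in the other lists went from 2 to between 0 and 49. No symbol occurs in more than 1 row, so summing rows was not run. With 3 libraries per group and unknown depth, the intervals of the tested driver genes do not show that any is unaffected. The causes of these shifts were not tested.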
